A study of Mus musculus with 3 samples.

Results

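The regulatory network of the sine oculis homeobox factors, their EYA coactivators and the DACH corepressors was followed through the cell classes of the mouse soft palate at E14.5. Its members here are Six2, Six4, Six5, Eya1, Eya2, Eya3, Eya4 and Dach1, chosen by symbol, which are 8 of the 32285 genes listed in the files. Cells of the posterior palatal region, strain C57BL/6, had been profiled with the 10x Genomics 3′ v2 chemistry, in which each captured transcript carries a unique molecular identifier (UMI). There were 2 control libraries, whose labels read control and whose embryos the study describes as Tgfbr1 fl/fl or Tgfbr1 fl/+, and 1 library from Osr2-Cre;Alk5fl/fl embryos, called the mutant below. Alk5 is an older name of Tgfbr1, the type I receptor of TGF-β, and in the mutant Cre is expressed from Osr2, which is active in the palatal mesenchyme. The number of embryos behind each library is not given in the sources used here, so p-values below do not measure a spread between embryos. They compare cell classes within each of 3 libraries, with a spread that is estimated in part across genes. A low p-value does not mean that all 3 libraries agree. The chemistry reads 3′ ends and a UMI of Tgfbr1 outside the deleted part checks nothing; its level in mesenchyme was 53.4 CPM (UMIs per 1000000 UMIs) in control 1, 62.1 CPM in control 2 and 49.1 CPM in the mutant.

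The sine oculis homeobox proteins, among them Six2, Six4 and Six5, are homeodomain transcription factors. EYA proteins bind no DNA by themselves, join these homeobox factors as coactivators and carry a phosphatase domain, and DACH proteins are corepressors related to SKI. In vertebrates the network acts in the placodes, the kidney, the ear and the myogenic precursors, and its homeobox factors bind the MEF3 element in the regulatory regions of muscle genes. Mutations of EYA1 cause branchio-oto-renal syndrome, and Six2 is known for keeping nephron progenitors undifferentiated.

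The promoters of Six4, Eya4 and Dach1 are shown: Six4 because it holds a MEF3 element, Eya4 and Dach1 because the genotype comparison below turns on these genes. Each runs from 250 bases before to 50 bases after a RefSeq start site in GRCm38.p6, is written 5′ to 3′ on the strand of the gene, and has the match to a searched motif in capitals, where there is one.
Six4, chr12:73113196-73113495, minus strand: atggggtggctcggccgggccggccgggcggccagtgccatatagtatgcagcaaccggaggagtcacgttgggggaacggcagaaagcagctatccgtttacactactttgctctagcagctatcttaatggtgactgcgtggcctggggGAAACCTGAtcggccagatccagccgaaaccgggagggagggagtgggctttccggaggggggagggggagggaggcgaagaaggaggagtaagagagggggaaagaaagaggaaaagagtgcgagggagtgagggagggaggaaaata
Eya4, chr10:23349894-23350193, minus strand: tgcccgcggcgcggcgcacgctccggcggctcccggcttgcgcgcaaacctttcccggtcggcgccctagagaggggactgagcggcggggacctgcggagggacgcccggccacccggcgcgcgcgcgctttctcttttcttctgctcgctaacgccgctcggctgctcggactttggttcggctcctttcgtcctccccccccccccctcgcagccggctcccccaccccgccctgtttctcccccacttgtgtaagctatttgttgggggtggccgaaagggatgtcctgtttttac
Dach1, chr14:98169716-98170015, minus strand: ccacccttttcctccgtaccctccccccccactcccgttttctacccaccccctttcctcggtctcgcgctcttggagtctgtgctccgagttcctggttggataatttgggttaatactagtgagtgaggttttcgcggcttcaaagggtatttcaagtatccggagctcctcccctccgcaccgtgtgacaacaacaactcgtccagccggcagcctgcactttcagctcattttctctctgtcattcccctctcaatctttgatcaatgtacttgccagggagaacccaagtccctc
Motifs searched on both strands for the capitals were MEF3 (TCAGGTTTC), the palindromic SMAD element (GTCTAGAC), the cAMP response element (TGACGTCA) and a myogenic E-box (CAGCTG), and none of these letter strings holds another. The capitals in Six4 are the reverse complement of MEF3, with the first base 99 bases before the start site (position -99). Of 32851 promoters of this length in the RefSeq table, 0.429% held MEF3, 0.213% the SMAD element, 1.79% the cAMP response element and 16.3% the E-box. The table held promoters of 6 of the 8 genes (Six2, Six4, Six5, Eya3, Eya4 and Dach1), and the Six4 match was the one match to these 4 motifs in them. Six4 and Eya4 have 2 promoters each there, the first is shown, and MEF3 lies in the first of Six4 only. TATAAA and CCAAT, held by 13.6 and 37.4% of the promoters, were searched as well. CCAAT occurred in Six2 (position -87) and in the second Six4 promoter (position -73). A match is a string of letters and was not tested as a binding site.

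In GENCODE vM21 (GRCm38) the network lies on 8 chromosomes. Six2 is a short gene on chromosome 17 (85684277 to 85688274, minus strand), and Six5 is equally short on chromosome 7 (19094594 to 19098549, plus strand). Six4 is on chromosome 12 (73099609 to 73113456, minus strand). The EYA genes are long, with Eya1 on chromosome 1 (14168954 to 14310235, minus strand), Eya2 on chromosome 2 (165595032 to 165771727, plus strand), Eya3 on chromosome 4 (132638987 to 132724765, plus strand) and Eya4 on chromosome 10 (23102963 to 23350786, minus strand). Dach1 is the longest, at 383 kb on chromosome 14 (97786853 to 98169765, minus strand). One listed gene, Gm28163, overlaps Eya2 on the opposite strand, and no other listed gene overlaps a member.

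The libraries held 2816, 4067 and 8690 barcodes and 22624711, 27814907 and 63505144 UMIs in control 1, control 2 and the mutant, and 18, 34 and 49 barcodes were shared between pairs of libraries. Cells were assigned by marker genes. Mesenchyme (Pdgfra, Twist1, Prrx1 and 4 further markers) held 1311, 2302 and 4309 cells, muscle (Myod1, Myog and 8 further markers) 158, 144 and 144 cells, and epithelium (Epcam, Krt14 and 3 further markers) 182, 309 and 401 cells. All markers of these lists were detected in their class in every library. Within the mesenchyme 5 gates were set, which share cells: perimysial (at least 2 of Hic1, Ebf2 and Agtr2) with 337, 220 and 410 cells, midline (Lsp1, Wnt16, Sostdc1) with 456, 925 and 1069, Tfap2b (that gene alone) with 22, 225 and 524, Scx (Scx, Tnmd, Mkx) with 32, 84 and 275, and osteogenic (Sp7, Ibsp, Ifitm5) with 76, 28 and 320. The libraries also differed in other cells and RNA. Control 1 carried more muscle RNA in its mesenchyme (6 differentiation markers summed to 112 CPM, with 21.2 CPM for control 2 and 6.88 CPM for the mutant). The mutant held 299 neuron-gated and 144 cartilage-gated cells among 7515 past the filters. The controls held 12 and 13 and 4 and 6, among 2056 and 3689. With 1 mutant library, an effect of genotype cannot be told apart from any other difference of that library.

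All 8 genes were sparse. A level is the CPM of UMIs summed over the cells of a class, and levels of different genes are not compared. In mesenchyme Six2 was the member with the widest difference between controls. It stood at 25.9 CPM there in control 1, 116 CPM in control 2 and 92.4 CPM in the mutant. The gap between the controls was over 4-fold (2.16 on the log2 scale), the mutant lay between them, and control 1 was also the lowest in the perimysial gate (14.2, 123 and 146 CPM) and in muscle (25.1, 56.4 and 47.6 CPM). After each cell was thinned to 2000 UMIs, Six2 was found in 4.29, 19.2 and 13.2% of mesenchymal cells (6, 104 and 150 shallower cells left out), and in 12.4, 39.6 and 32.5% without thinning. Myeloid cells, which should lack it, gave 0, 0 and 1.48% after thinning (4.65, 1.19 and 4.38% without), where the 0 of 38 and 0 of 78 cells allow shares of up to 9.25 and 4.62% (Clopper-Pearson, 95%); median depths were 7892, 5279 and 5502 UMIs in mesenchyme and 9830, 6084 and 5192 in myeloid cells. In control 2 and the mutant the mesenchymal share lay above the myeloid value and its limit, and in control 1 it lay within that limit.

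**Figure D1:**
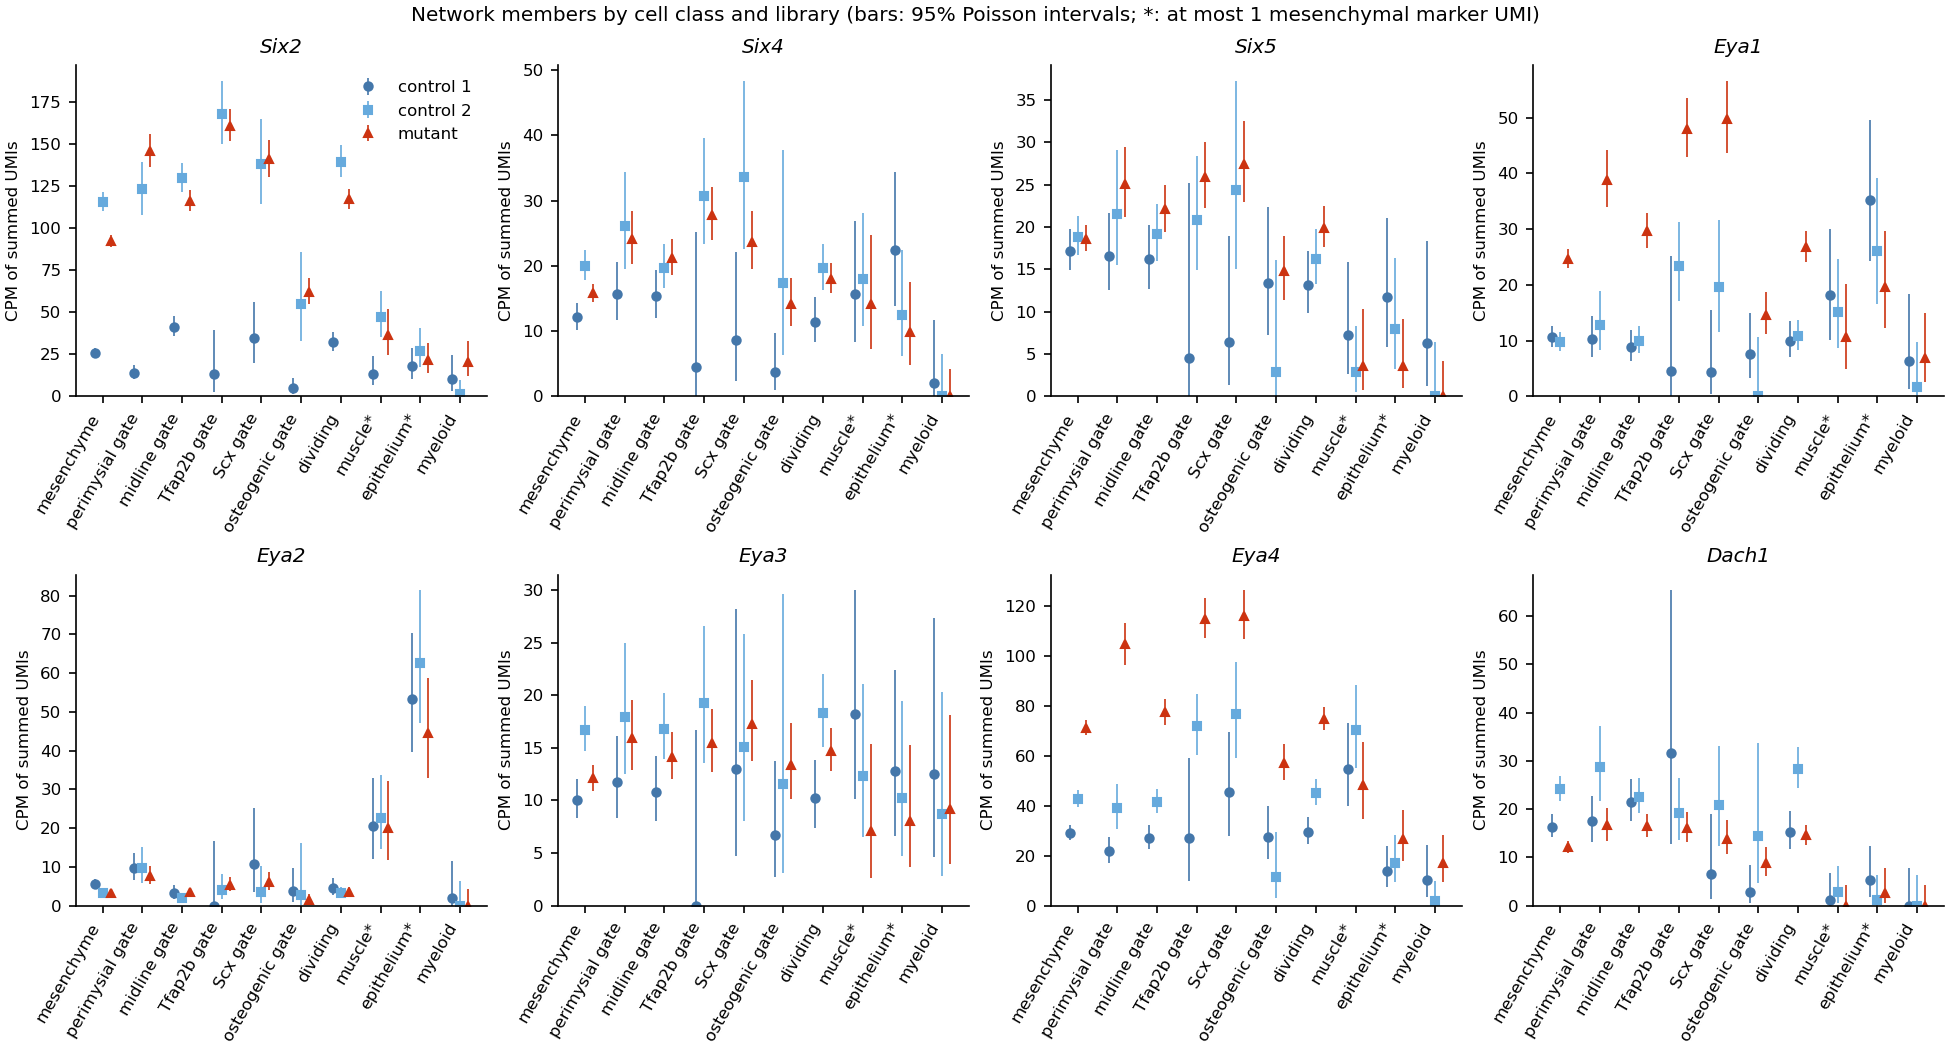
Level of each network member (CPM of summed UMIs, linear axes that differ between panels) in 10 cell classes, 1 point per library with its exact 95% Poisson interval; muscle and epithelium are drawn for cells with at most 1 mesenchymal marker UMI. Six2 in control 1 (25.9 CPM in mesenchyme) sits under control 2 (116 CPM) and the mutant (92.4 CPM), and Eya2 is highest in epithelium (53.4, 62.5 and 44.6 CPM).

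The first comparison asked which members differ between muscle and mesenchyme. Eya2 and Eya4 were higher in muscle, and Six5 and Dach1 were lower, at an adjusted p under 0.05 (edgeR quasi-likelihood test on sums per library and class, library as a block, n = 3 libraries, Benjamini-Hochberg over all 12789 genes tested). These are 4 of 8 members, where 30.9% of all genes tested passed (17% higher, 13.8% lower), and the median log2 fold change was 0.37 over the members and -0.05 over all genes. These fold changes carry TMM factors, which put muscle 0.35 higher (log2) than CPM does. With total UMIs in place of TMM factors, an alternative chosen after seeing the data, the median of all genes was -0.40, 8.44% of genes were higher and 26.2% lower, and Eya4 no longer passed while Six2 did. Eya2, one of the coactivators, was at 9.74, 23.4 and 16.8 CPM in muscle and at 5.50, 3.20 and 3.18 CPM in mesenchyme. Its level in muscle exceeded that in mesenchyme in 3 of 3 libraries, with a log2 fold change of 2.36 ± 0.42 (SE) and an adjusted p of 0.0022. Eya4, known from inherited hearing loss, was at 51.0, 72.5 and 46.7 CPM in muscle and 29.1, 42.9 and 71.2 CPM in mesenchyme, so that muscle was higher in both controls and lower in the mutant. Its log2 fold change was 0.71 ± 0.24 (adjusted p = 0.043), but 0.45 (adjusted p = 0.13) without control 2 and 0.35 (adjusted p = 0.31) by total UMIs. Eya2 stayed at 2.01 (adjusted p = 0.0081) by total UMIs.

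On the lower side, Dach1, the corepressor, was at 5.62, 3.66 and 2.64 CPM in muscle and at 16.4, 24.2 and 12.2 CPM in mesenchyme. The groups did not overlap, and the log2 fold change was -1.69 ± 0.29 (adjusted p = 0.0019). Six5, the homeobox gene next to the myotonic dystrophy kinase, was at 8.62, 3.66 and 7.05 CPM in muscle against 17.2, 18.9 and 18.6 CPM in mesenchyme. Its log2 fold change was -1.10 ± 0.27 (adjusted p = 0.012), and -1.15 (adjusted p = 0.062) without the mutant. Six4, which with its close relatives is known to act upstream of myogenic factors, was at 15.7, 19.03 and 14.1 CPM in muscle and 12.1, 20.04 and 15.8 CPM in mesenchyme, lower in muscle in 2 of 3 libraries. Its log2 fold change was 0.42 (adjusted p = 0.14) with TMM factors and 0.07 (adjusted p = 0.81) by total UMIs. Eya1 (0.37, adjusted p = 0.38) and Eya3 (0.36, adjusted p = 0.26) missed the threshold as well and were at 0.03 and 0.01 by total UMIs. Six2 missed it (-0.34, adjusted p = 0.18), but passed without control 1 (-0.59, adjusted p = 0.0012) and by total UMIs (-0.69, adjusted p = 0.033).

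Muscle cells held UMIs of the 7 mesenchymal markers, which summed to 499, 119 and 177 CPM by library, while in mesenchyme they summed to 1213, 1170 and 1278 CPM. In the 58, 117 and 121 muscle cells with at most 1 such UMI, Six2 was lower than in mesenchyme as well, at 13.3, 47.4 and 36.6 CPM (log2 fold change -0.83 ± 0.17, adjusted p = 1.9e-04). Dach1 had 1 UMI in control 1, 3 UMIs in control 2 and none in the mutant, where 3 UMIs would be 3.54 CPM, and its log2 fold change, which rests on these few UMIs, was -3.22 ± 0.53 (adjusted p = 6.8e-06). Eya2 in these cells was at 20.6, 22.8 and 20.1 CPM, a narrow range, with a log2 fold change of 2.87 ± 0.36 (adjusted p = 8.3e-08). Eya4 (0.76 ± 0.19, adjusted p = 0.0017) and Six5 (-1.64 ± 0.39, adjusted p = 8.3e-04) passed too, which makes 5 of 8 members, where 44% of 12436 genes passed (20.2% higher, 23.9% lower). By total UMIs 11.3% of genes were higher and 42.4% lower, and Eya4 was at 0.35 (adjusted p = 0.12). Without control 2 Eya4 was at 0.55 (adjusted p = 0.11), and without the mutant Eya1 passed, at 1.09 (adjusted p = 0.012). The part of choosing cells by few mesenchymal UMIs in these fold changes was not tested.

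Epithelium was the class in which Eya2 was highest. Over all epithelium-gated cells Eya2 was at 43.4, 35.8 and 28.9 CPM, above mesenchyme in 3 of 3 libraries, with a log2 fold change of 3.13 ± 0.15 (adjusted p = 1.4e-05). Eya1 was higher too, at 30.9, 19.5 and 29.3 CPM against 10.7, 9.74 and 24.7 CPM in mesenchyme (0.76 ± 0.23, adjusted p = 0.042), and Dach1 was lower, at 7.64, 10.6 and 8.77 CPM (-0.99 ± 0.18, adjusted p = 0.0072). That is 3 of 8 members, where 32.8% of 13442 genes tested passed (16.8% higher, 16% lower; 20.7 and 11.8% by total UMIs, where Eya3 passed too, at 0.42 with an adjusted p of 0.044). Without control 2, Eya2 alone passed, with Eya1 at 0.73 (adjusted p = 0.20) and Dach1 at -0.82 (adjusted p = 0.098).

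The epithelial gate also held mesenchymal marker UMIs, at 299, 567 and 754 CPM, lowest in control 1 and highest in the mutant, as was Eya4 in that gate (18.8, 52.6 and 72.3 CPM). Restricting to the 86, 100 and 159 cells with at most 1 such UMI left 49.2, 40.9 and 37.4 CPM of these markers and changed the picture for 3 members. Six2 went from 26.05, 98.8 and 94.4 CPM to 18.2, 27.3 and 21.4 CPM, a log2 fold change of -1.70 ± 0.24 against mesenchyme (adjusted p = 6.7e-05) where it had been -0.15 (adjusted p = 0.26). Eya4 went to 13.9, 17.1 and 26.7 CPM, from -0.11 (adjusted p = 0.61) to -1.28 ± 0.19 (adjusted p = 1.1e-04). Six5 went to 11.8, 7.96 and 3.57 CPM, from -0.35 (adjusted p = 0.071) to -1.26 ± 0.33 (adjusted p = 0.0076). The restricted cells had median depths of 10573, 7473.5 and 6147 UMIs, where the whole gate had 13384, 12226 and 11032. The part of depth, and of choosing cells by few mesenchymal UMIs, in these changes was not tested.

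In these cells Eya2 was at 53.4, 62.5 and 44.6 CPM (3.80 ± 0.25, adjusted p = 3.1e-08), and Dach1 at 5.34, 1.14 and 2.67 CPM (-2.45 ± 0.42, adjusted p = 3.6e-04). Eya1 stayed past the threshold at 0.91 ± 0.33 (adjusted p = 0.040), although in the mutant it was lower than in mesenchyme (19.6 against 24.7 CPM). It did not pass without control 1 (0.48, adjusted p = 0.35) or control 2 (0.68, adjusted p = 0.15), nor by total UMIs (0.89, adjusted p = 0.051). Six5 missed the threshold without the mutant (-0.86, adjusted p = 0.085). In all, 6 of 8 members passed, 2 higher and 4 lower, where 38.3% of 12846 genes passed (18.2% higher, 20.1% lower). Six4 (-0.08, adjusted p = 0.87) and Eya3 (-0.29, adjusted p = 0.48) did not.

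**Figure D2:**
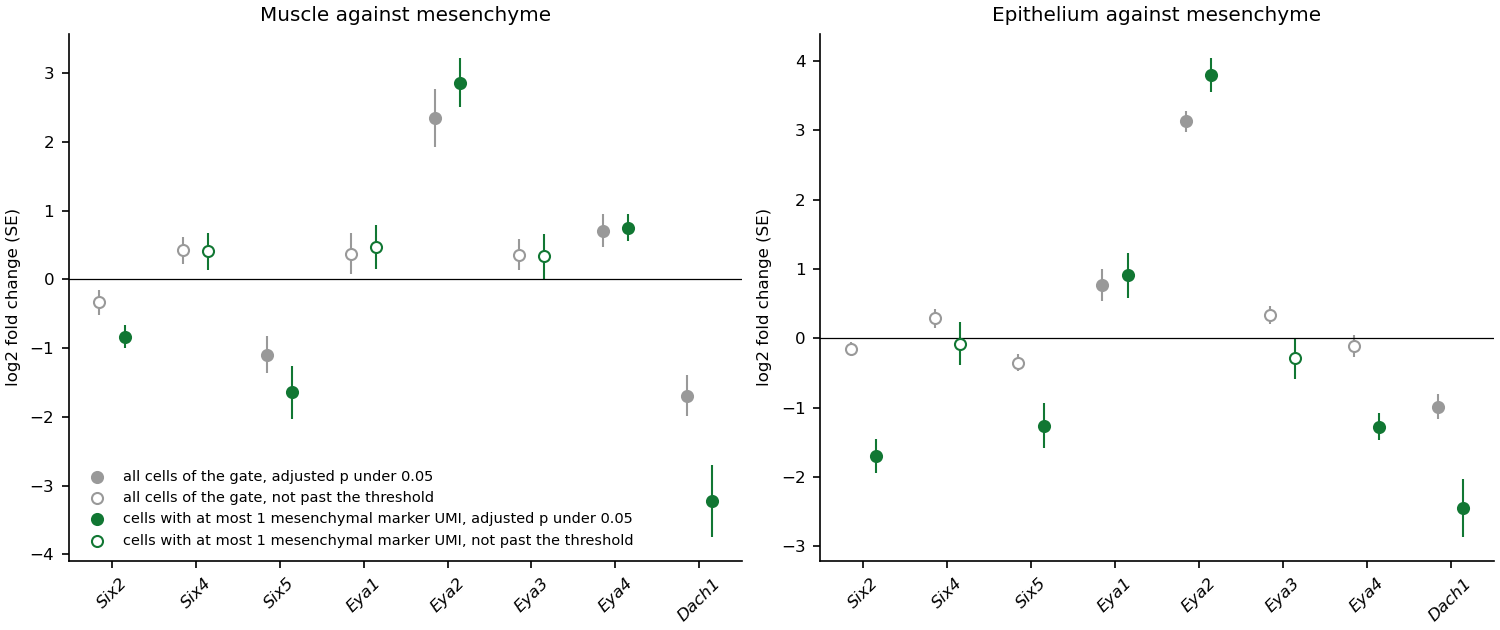
Log2 fold change with its SE (edgeR with TMM factors, n = 3 libraries) of each member in muscle (left) and epithelium (right) against mesenchyme, over all gated cells (grey) and over cells with at most 1 mesenchymal marker UMI (green); filled points passed an adjusted p of 0.05. Eya2 is highest in both panels, at 2.36 and 3.13 over all cells, and Six2 and Eya4 in epithelium move from near 0 to -1.70 and -1.28.

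Eya1 differed within muscle. The split planned by progenitor and differentiation markers left only 2, 9 and 9 progenitors, tested 2 of the members and called neither, with 1.96% of 5671 genes passing (1.62% higher, 0.335% lower). The unadjusted p was 0.96 for Six2 and 0.29 for Eya4, and DESeq2 called no member. A split added after the values were seen set muscle cells with at least 1 UMI of Myog or Mymk (110, 85 and 76 cells), genes of myocytes ready to differentiate and fuse, against those with none (48, 59 and 68 cells). Eya1 was at 38.1, 25.4 and 19.2 CPM in cells with none (30, 15 and 11 UMIs) and at 5.85, 5.15 and 3.57 CPM in cells with Myog or Mymk (11, 4 and 2 UMIs). The ranges did not overlap, and the log2 fold change was -2.41 ± 0.41 (adjusted p = 3.6e-05). It was the 1 member of 5 tested that passed, where 15.7% of 6345 genes passed (9.8% higher, 5.89% lower; 6.45 and 9.38% by total UMIs), and it passed without each library in turn, at -2.16, -2.51 and -2.45. Eya4 (-0.17, adjusted p = 0.67), Eya2 (0.45, adjusted p = 0.51), Six2 (-0.26, adjusted p = 0.56) and Six4 (0.10, adjusted p = 0.90) missed the threshold.

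**Figure D3:**
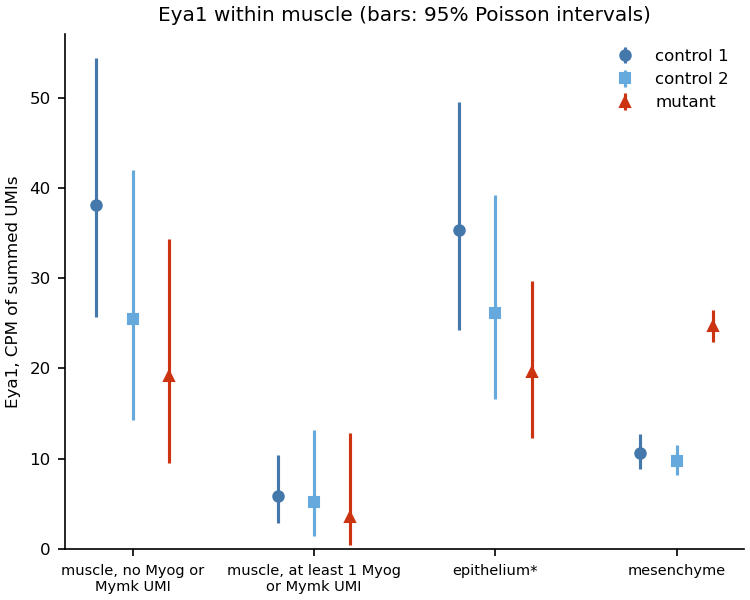
Level of Eya1 (CPM of summed UMIs) in muscle cells without and with a Myog or Mymk UMI, in epithelium (asterisk: cells with at most 1 mesenchymal marker UMI) and in mesenchyme, 1 point per library with its exact 95% Poisson interval. Muscle cells without Myog or Mymk (38.1, 25.4 and 19.2 CPM) lie above those with it (5.85, 5.15 and 3.57 CPM) in every library.

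Within the mesenchyme each gate was set against the remaining mesenchymal cells. Gated cells were deeper than the rest in most libraries (median 8398, 7312 and 10790 UMIs in the perimysial gate against 7708, 5143 and 5237 outside it), so each contrast was also run on cells of 5000 to 15000 UMIs, an alternative chosen after seeing the data. In the perimysial gate, whose cells surround the muscle anlagen, Eya2 was higher. It stood at 9.66, 9.74 and 7.73 CPM (32, 19 and 45 UMIs), where the libraries ranged from 2.13 to 3.84 CPM in the remaining mesenchyme. The log2 fold change was 1.66 ± 0.25 (adjusted p = 6.4e-04) and 1.77 (adjusted p = 0.0033) in the depth band. Eya2 was 1 of 8 members to pass, where 5.7% of 12824 genes passed (3.5% higher, 2.2% lower; 5.87 and 1.18% by total UMIs). Six4, at 15.7, 26.1 and 24.0 CPM in the gate (0.52 ± 0.15, adjusted p = 0.0502), passed by total UMIs (0.62, adjusted p = 0.024), and Eya1 passed only without control 1 (0.60, adjusted p = 0.049, against 0.43 and 0.17 with all libraries).

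The Tfap2b gate had the most members higher, with 4 of 8 passing (Six2, Six4, Eya1 and Eya4) where 11.9% of 13070 genes passed (5.1% higher, 6.8% lower; 12.1 and 2.13% by total UMIs, where the same 4 members passed). DESeq2 called 0 of 8 there. It gave an adjusted p to 1895 genes in this contrast, among the members to Six2 alone (0.16), and its unadjusted p was 0.0093 for Eya1, 0.0031 for Eya4 and 0.096 for Six4. The median log2 fold change was 0.67 over the members and 0.00 over all genes. In control 1 the 4 members were lower in the gate than over all mesenchyme. Six2, Six4, Eya1 and Eya4 were at 13.6, 4.53, 4.53 and 27.2 CPM in its gate, from 3, 1, 1 and 6 UMIs. Over all mesenchyme of control 1 they were at 25.9, 12.1, 10.7 and 29.1 CPM. Tfap2b encodes an AP-2 transcription factor of the cranial neural crest. Eya1 in this gate was at 4.53, 23.4 and 48.0 CPM, from 1, 45 and 335 UMIs, so that control 1, with its 22 cells, adds next to nothing. Its log2 fold change was 1.24 ± 0.16 (adjusted p = 1.5e-11), and 1.21 (adjusted p = 0.042) without the mutant. Eya4 was at 27.2, 71.8 and 115 CPM (0.75 ± 0.12, adjusted p = 2.2e-07), and missed the threshold without control 2 (0.67, adjusted p = 0.10) or without the mutant (0.65, adjusted p = 0.21).

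Both homeobox genes that passed in the Tfap2b gate rest on control 2 and the mutant. Six4 was at 4.53, 30.7 and 27.8 CPM (0.80 ± 0.16, adjusted p = 8.4e-05), with 0.86 (adjusted p = 0.062) without control 2 and 0.50 (adjusted p = 0.73) without the mutant. Six2 was at 13.6, 168 and 161 CPM (0.72 ± 0.11, adjusted p = 1.1e-07), with 0.79 (adjusted p = 0.020) without control 2 and 0.43 (adjusted p = 0.42) without the mutant. In the depth band the log2 fold changes were 0.67 for Six2, 0.80 for Six4, 1.32 for Eya1 and 0.83 for Eya4, each past the threshold. The share of all genes that passed in that band is not given, so this is not read as a result about the members.

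Eya1 and Eya4 were also higher in the Scx gate, the tendon-associated cells, together with Six2. These are 3 of 8 members, where 6.35% of 12939 genes passed (3.28% higher, 3.07% lower; 6.39 and 1.16% by total UMIs). DESeq2 called 0 of 8 here too, with an adjusted p for Six2 alone (0.12) and an unadjusted p of 6.8e-05 for Eya4 and 0.060 for Eya1. Eya4 was at 45.3, 76.5 and 116 CPM (0.75 ± 0.12, adjusted p = 5.6e-04) and passed without each library in turn. Eya1 was at 4.32, 19.7 and 49.8 CPM (0.96 ± 0.21, adjusted p = 0.0064), and at 0.45 (adjusted p = 0.80) without the mutant. In control 1 the Eya1 level of the gate rests on 2 UMIs and was lower than over all mesenchyme (10.7 CPM). Six2 was at 34.5, 138 and 141 CPM (0.44 ± 0.12, adjusted p = 0.028), with 0.57 (adjusted p = 0.13) without control 2, 0.23 (adjusted p = 0.72) without the mutant and 0.12 (adjusted p = 0.82) in the depth band. Six4 passed only without control 1 (0.60, adjusted p = 0.044) or with stricter gates (0.70, adjusted p = 0.039), and with stricter gates Six2 missed the threshold (0.33, adjusted p = 0.15) and Eya2 passed (1.37, adjusted p = 0.018). The gates share cells, so their values are not independent. Of Scx-gated cells, 34.5% were also in the Tfap2b gate, 33.0% in the perimysial gate and 52.2% in the midline gate. The midline gate also held 41.0% of Tfap2b-gated and 38.6% of perimysial-gated cells.

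Six2 separated the remaining gates. It was higher in the midline gate, at 41.4, 130 and 116 CPM (0.57 ± 0.10, adjusted p = 6.2e-05), the 1 member of 8 to pass where 5.3% of 12779 genes passed (2.46% higher, 2.83% lower; 3.25 and 1.45% by total UMIs). Without control 1 it was at 0.38 (adjusted p = 0.12), and in the depth band at 0.39 (adjusted p = 0.075). Without control 2, Six4 (0.62, adjusted p = 0.0071) and Dach1 (0.67, adjusted p = 0.0027) passed as well, and without the mutant Eya2 was lower (-1.12, adjusted p = 0.033). It was lower in the osteogenic gate, at 4.77, 54.9 and 62.1 CPM (-0.87 ± 0.19, adjusted p = 3.7e-04), in the depth band (-1.42, adjusted p = 5.2e-06) and without each library in turn. Dach1 was the other member of the 2 lower in the osteogenic gate, where 13.6% of 12695 genes passed (7.55% higher, 6% lower; 4.69 and 9.1% by total UMIs), at 2.86, 14.46 and 8.84 CPM (3, 5 and 37 UMIs), with 17.8, 24.5 and 12.7 CPM in the remaining mesenchyme (-0.82 ± 0.29, adjusted p = 0.044), and it missed the threshold without control 1 (-0.42, adjusted p = 0.58) or control 2 (-0.86, adjusted p = 0.077). In the depth band Dach1 passed (-1.89, adjusted p = 0.00385), as did Eya1 (-1.65, adjusted p = 0.012), which with all cells was at -0.76 (adjusted p = 0.066), and at -0.88 (adjusted p = 0.035) by total UMIs.

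Dividing mesenchymal cells, those with at least 3 UMIs of 5 mitosis genes such as Mki67 and Top2a, had more Six2 than the rest. Its level there was 32.1, 140 and 117 CPM, with a log2 fold change of 0.55 ± 0.07 (adjusted p = 9.6e-09), 0.49 to 0.59 without each library in turn and 0.43 (adjusted p = 1.6e-04) in the depth band. It was the 1 member to pass, where 26.6% of 12915 genes passed (15.1% higher, 11.5% lower; 18.8 and 7.88% by total UMIs). By total UMIs Dach1 (0.33, adjusted p = 0.048) and Eya3 (0.35, adjusted p = 0.049) passed too. Without control 1, Dach1 (0.40, adjusted p = 0.010) and Eya3 (0.35, adjusted p = 0.046) passed as well, and without the mutant Six5 was lower (-0.47, adjusted p = 0.013). With TMM factors and all libraries, Eya3 missed the threshold in each of these comparisons.

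**Figure D4:**
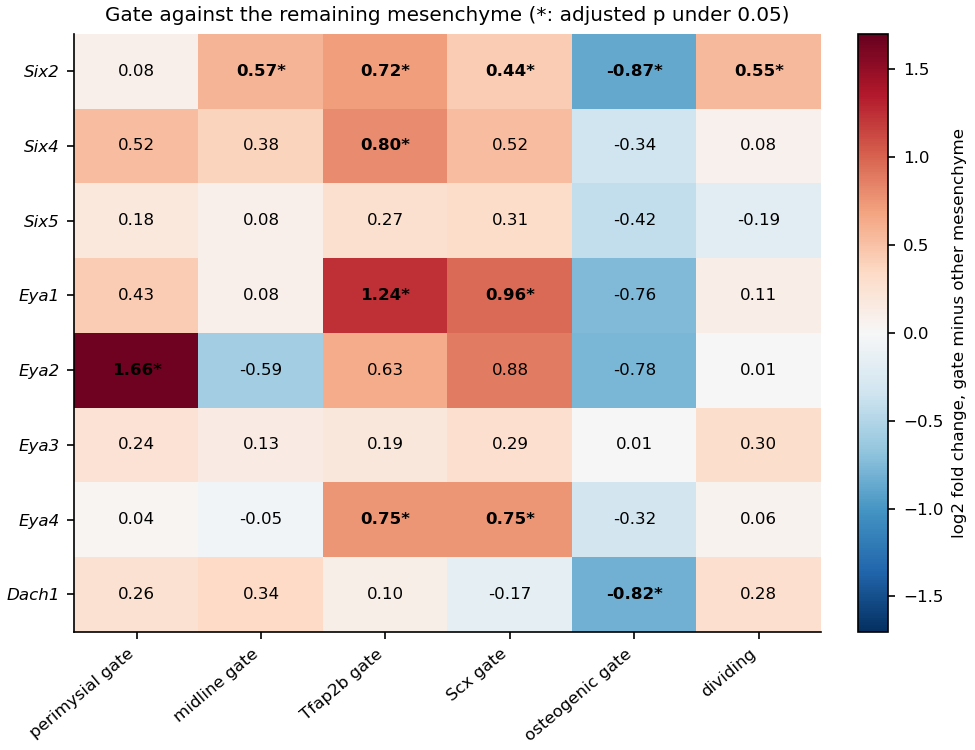
Log2 fold change of each member in 5 mesenchymal gates and in dividing cells, each against the remaining mesenchyme (edgeR, n = 3 libraries); red is higher in the gate, blue lower, and bold values with an asterisk passed an adjusted p of 0.05. Six2 is higher in 4 of the 6 columns and lower in the osteogenic gate (-0.87), and Eya2 stands out in the perimysial gate (1.66).

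The genotype comparison has 1 mutant library and so no test. A member is called different when the mutant was above both controls or below both, the ratio was at least 1.5-fold and larger than the control gap, and the level was 10 CPM or more in the mutant or in both controls. With 1 control left out there is no gap, and only the 1.5-fold limit and the level apply. In mesenchyme, Eya1 and Eya4 were higher and Dach1 was lower in the mutant, 3 of the 7 members at a sufficient level, where 6.64% of 8543 genes met the criteria (2.18% higher, 4.46% lower). Eya1 was at 10.7, 9.74 and 24.7 CPM, a log2 ratio of 1.28 where the controls differed by 0.13. Eya4 was at 29.1, 42.9 and 71.2 CPM, a log2 ratio of 1.01 with a control gap of 0.56. Its shares after the same thinning were 5.90, 7.83 and 10.7%. There the mutant interval (9.75 to 11.7%) lay above those of control 1 (4.68 to 7.32%) and control 2 (6.74 to 9.03%). For Eya1 the shares were 2.84, 1.82 and 3.46%. Its mutant interval began at 2.93%, above that of control 2 (upper limit 2.47%) but within that of control 1 (upper limit 3.89%). For Dach1 the shares were 2.61, 4.55 and 2.16%. Its mutant interval ended at 2.65%, under that of control 2 (lower limit 3.72%) but within that of control 1 (lower limit 1.81%). By this measure neither Eya1 nor Dach1 was separated from control 1. Dach1 was at 16.4, 24.2 and 12.2 CPM, a log2 ratio of -0.71 with a control gap of 0.56, and it no longer met the criteria without control 2 (-0.43) or with TMM factors (-0.57), which raised the median of all genes in mesenchyme by 0.14. Without control 2, Six2 would be higher in the mutant (1.84). In myeloid cells, used above as background, 0 of the 2 members at a sufficient level met the criteria, where 19% of 7908 genes did (8.19% higher). The mutant was above both controls there as well, for Six2 with 5, 1 and 18 UMIs (10.5, 1.74 and 20.7 CPM, log2 ratio 2.28, control gap 2.59) and for Eya4 with 5, 1 and 15 UMIs (10.5, 1.74 and 17.3 CPM, log2 ratio 2.01, control gap 2.59). So it was for Eya1, under that level, with 3, 1 and 6 UMIs (log2 ratio 1.06, control gap 1.85). Of the 2 members at a sufficient level in endothelium-gated cells, 0 met the criteria, where 15.9% of 8309 genes did (6.94% higher). The mutant was above both controls in those cells for Six2 (0, 2 and 28 UMIs), Eya4 (0, 1 and 18) and Eya1 (0, 1 and 5). Dach1 lay between the controls (3, 5 and 18 UMIs). The part of such background in the mesenchymal values was not tested.

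The perimysial gate showed larger ratios for the same EYA genes. Other markers moved in this gate too, the 3 perimysial markers summing to 610, 535 and 295 CPM, the 3 Scx markers to 64.0, 76.4 and 166 CPM, Tfap2b to 2.42, 41.5 and 68.7 CPM and the 5 cartilage markers to 28.4, 50.2 and 113 CPM, with 2, 1 and 0 of the cartilage markers and none of the others at 0. Their part in the ratios was not tested. Eya4 was at 21.7 and 38.9 CPM in the controls and 105 CPM in the mutant (log2 ratio 1.85, control gap 0.84), and Eya1 at 10.3, 12.8 and 38.8 CPM (log2 ratio 1.76, control gap 0.32). These were 2 of 7 members at a sufficient level, where 12.9% of 8910 genes met the criteria (7.23% higher, 5.7% lower). Six2, at 14.2, 123 and 146 CPM, lay above both controls by a log2 ratio of 1.80 that was smaller than the control gap of 3.12. Without control 2, Six2 (3.36), Six4 (0.61) and Six5 (0.59) would be over 1.5-fold higher as well. Dach1, at 17.5, 28.7 and 16.7 CPM, was under both controls with a log2 ratio of -0.43, less than the gap. Without control 1 it was over 1.5-fold lower (-0.79).

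Eya1 lay above both controls in each of the other mesenchymal gates. Its levels were 8.84, 9.93 and 29.6 CPM in the midline gate, 4.53, 23.4 and 48.0 CPM in the Tfap2b gate and 4.32, 19.7 and 49.8 CPM in the Scx gate, with log2 ratios of 1.66, 2.22 and 2.43. In control 1 the Tfap2b and Scx values rest on 1 and 2 UMIs, with exact 95% Poisson intervals of 0.115 to 25.2 and 0.523 to 15.6 CPM. In the midline gate the ratio was over its control gap (0.17) and in the Scx gate over it (2.19), while in the Tfap2b gate it was under the gap (2.37), so that Eya1 did not meet the criteria there. In the osteogenic gate it had no UMI in control 2, where 3 UMIs would be 8.68 CPM, and 7.63 and 14.6 CPM in control 1 and the mutant. It met the criteria there (log2 ratio 0.84, control gap 0.19), but that gap rests on the 0 set to 3 UMIs. Eya4 met the criteria in the midline (27.2, 41.6 and 77.4 CPM), Scx (21, 66 and 550 UMIs) and osteogenic gates (29, 4 and 239 UMIs). In the Tfap2b gate its ratio of 1.38 was under the control gap of 1.40. In the Tfap2b gate 0 of 7 members at a sufficient level met the criteria. With counts under 3 UMIs set to 3, an alternative chosen after seeing the data, Eya1 (1.43, control gap 0.78) and Six5 (0.63, control gap 0.61) would, both through the single UMI of control 1. Of all genes, 8.11, 9.67, 13 and 16.2% met the criteria in either direction in the midline, Tfap2b, Scx and osteogenic gates, and 4.33, 3.46, 6.67 and 9.29% met them upward. In dividing cells Eya1 (9.97, 10.8 and 26.8 CPM) and Eya4 (29.7, 45.2 and 74.8 CPM) met them, where 2.45% of all genes did so upward. In the 565, 1071 and 2439 mesenchymal cells in none of the 5 gates, neither EYA gene met the criteria, with Eya1 at 13.3, 7.31 and 16.0 CPM and Eya4 at 36.5, 40.9 and 54.2 CPM, while Dach1 did, at 14.97, 27.4 and 10.4 CPM (log2 ratio -0.96), where 8.58% of all genes did (1.42% higher, 7.16% lower). Depth also differed, with medians of 7128, 4532 and 4484 UMIs in the cells in no gate. Medians were 8398, 7312 and 10790 UMIs in the perimysial gate and 7810.5, 6399 and 10310 in the Tfap2b gate. In the Scx gate they were 13122.5, 8714 and 14232 UMIs. The part of depth in the ratios by gate was not tested. Tfap2b-gated cells made up 1.68, 9.77 and 12.2% of the mesenchyme, and the part of this share in the mesenchymal values was not tested.

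Muscle showed 0 of 6 members past the criteria, where 15.9% of 7473 genes met them (2.81% higher, 13.1% lower). Eya1 (15.4, 13.9 and 11.5 CPM) and Eya4 (51.0, 72.5 and 46.7 CPM) were under both controls there, with log2 ratios of -0.35 and -0.38. Without control 1 Eya4 was over 1.5-fold lower (-0.63), and without control 2 Six2 (0.92) and Eya2 (0.78) were over 1.5-fold higher. With stricter gates Eya1 met the criteria downward (-0.65), and in muscle cells with at most 1 mesenchymal UMI so did Eya1 (-0.65) and Eya3 (-1.08), where 20.2% of 6983 genes met them (5.34% higher, 14.8% lower). Epithelium over all gated cells showed 0 of 7, where 8.82% of 8996 genes met them (2.48% higher, 6.34% lower), with Eya4 at a log2 ratio of 1.20 under its control gap of 1.49. By the 1.5-fold limit and level alone, Eya1 was higher without control 1 (0.59). Without control 2, Six2 (1.86) and Eya4 (1.95) were higher by that rule and Eya2 (-0.58) was lower. In the epithelial cells with at most 1 mesenchymal UMI, 16.9% of 8185 genes met the criteria (3.71% higher, 13.2% lower). There Eya4 was higher (13.9, 17.1 and 26.7 CPM from 13, 15 and 30 UMIs, log2 ratio 0.80). Eya1 was lower (35.3, 26.2 and 19.6 CPM from 33, 23 and 22 UMIs, log2 ratio -0.63, control gap 0.43). Against control 2 alone, Eya1 was less than 1.5-fold lower. By these few UMIs, Eya1 in the mutant was under both controls in these epithelial cells, while it was above them in mesenchyme. The difference between classes was not tested.

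**Figure D5:**
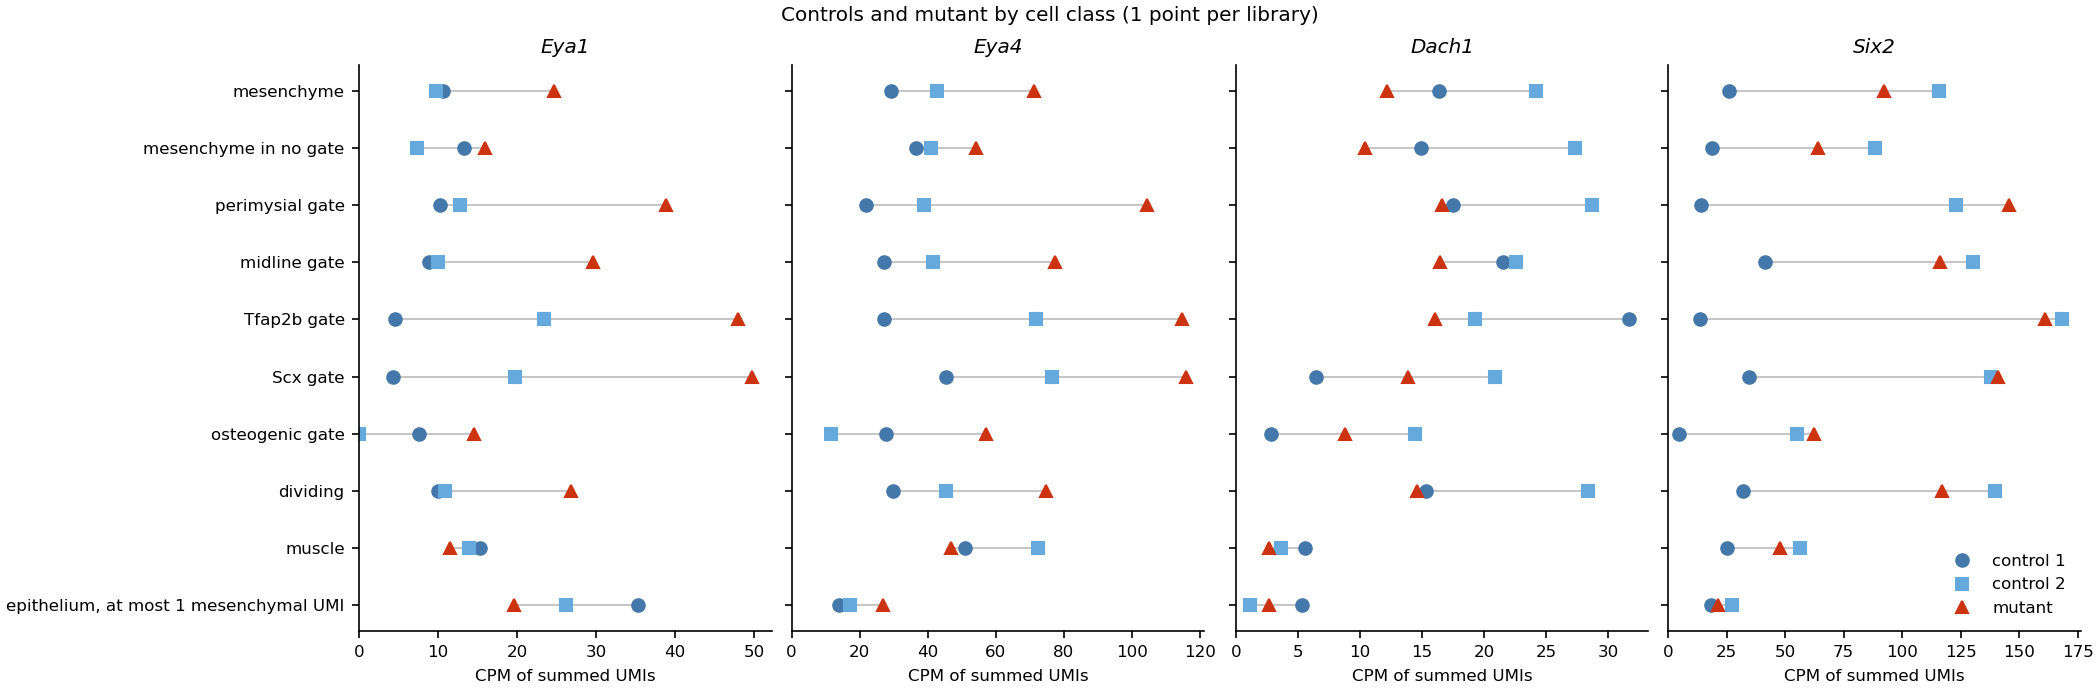
Level of Eya1, Eya4, Dach1 and Six2 (CPM of summed UMIs, linear axes that differ between panels) in 10 cell classes, 1 point per library, with a line from the lowest to the highest. In mesenchyme the mutant lies right of both controls for Eya1 (24.7 CPM) and Eya4 (71.2 CPM), left of both for Dach1 (12.2 CPM) and between them for Six2 (92.4 CPM).

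A list of 14 further genes that act with the network was read in the same tests, 10 or 11 of them expressed enough to be tested in most comparisons. In muscle, Tbx1 (2.89 ± 0.32, adjusted p = 1.4e-04), a T-box factor of the pharyngeal muscle lineage, and Tshz3 (0.94 ± 0.20, adjusted p = 0.0053) were higher than in mesenchyme, and Pax9 (-1.94 ± 0.27, adjusted p = 6.1e-04) and Pax3 (-1.60 ± 0.49, adjusted p = 0.032) were lower. That is 2 higher and 2 lower of 10 tested, where 17% of all genes were higher and 13.8% lower. In epithelium, Tbx1, Pax1 and Skil were higher and Pax3, Tshz2, Tshz3 and Sobp were lower. These are 3 and 4 of 11 tested, where 16.8% of all genes were higher and 16% lower. In the perimysial gate Ski (0.49), Skil (0.53), Tshz1 (0.47) and Tshz2 (0.89) were higher and none was lower. There 3.5% of all genes were higher and 2.2% lower, and 10 of the list were tested. Ski and Skil are corepressors of SMAD proteins and relatives of DACH. In the Tfap2b gate Tshz1, Skil, Ski and Pax9 were higher, in the Scx gate Tshz1, in the midline gate Pax3 and Pax9, and in dividing cells Pax3, Ski and Tshz1, with Tshz2 lower there. In the osteogenic gate Pax3, Pax9, Tshz1 and Tshz2 were lower. The list had 11 genes tested in the Scx gate and 10 in each of these others. Of all genes, 5.1, 3.28, 2.46 and 15.1% were higher in the Tfap2b, Scx and midline gates and in dividing cells. In dividing cells 11.5% of all genes were lower, and in the osteogenic gate 6% were. By total UMIs, Ski, Tshz2 and Sobp were lower in muscle as well, Sobp in epithelium no longer passed, and Pax9 (epithelium, dividing cells), Tbx1 (perimysial gate) and Sobp (midline and Scx gates) were higher. Of 5 genes fixed as targets of the network, Ezr (3.66) and Slc12a2 (1.06) were higher in epithelium, and Ezr (0.76) in the Tfap2b gate; by total UMIs Slc12a2 was higher in the Tfap2b and Scx gates and in dividing cells, and Sall1 in the Tfap2b gate. Targets tested numbered 3 in epithelium and 4 in the Tfap2b gate, and the shares of all genes by total UMIs are given above. Between genotypes, 0 of the 7 listed network genes at a sufficient level met the criteria in mesenchyme, where 6.64% of all genes did. Sobp (21.4, 37.9 and 69.9 CPM) and the target Slc12a2 (19.03, 36.9 and 62.2 CPM) were higher in the perimysial gate of the mutant, Sobp higher and Tbx1 and Tshz2 lower in muscle, and Sobp higher and Pax1 and Ezr lower in epithelium. In epithelial cells with at most 1 mesenchymal UMI Sobp was lower instead (19.2, 23.9 and 9.81 CPM). Listed network genes at a sufficient level numbered 7 in the perimysial gate and 8 in muscle and in epithelium. Of all genes, 12.9, 15.9 and 8.82% met the criteria in these classes, and 16.9% in epithelial cells with at most 1 mesenchymal UMI.

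Over 30 class-by-library sums and among genes of at least 50 CPM in some sum, gate genes left out, the genes whose level followed each member most closely, by Pearson correlation of log2(CPM + 1), were Col25a1 for Six2 (r = 0.93), Zmynd11 for Six4 (0.92), Phf21a for Six5 (0.91), Npepps for Eya1 (0.92), Tagln for Eya2 (0.86), Hikeshi for Eya3 (0.86), Capn6 for Eya4 (0.94) and Pabpc4l for Dach1 (0.91). The 30 points come from 3 libraries, the mesenchymal gates share cells and so these are descriptions with no test.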

How the data were processed

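Single-cell RNA-seq libraries of E14.5 mouse soft palate were analysed, 2 control and 1 mutant. The authors aligned the reads to mm10 with Cell Ranger (the matrix headers give version 4.0.0, the submitters' processing notes 3.1.0), and the deposited tables hold unnormalized UMI counts for each gene and barcode, library by library. The integration described by the study is not in these counts. No column of per-sample values was left unused. Members and lists were chosen with earlier results of these data known, and 1 gene of the fixed network list is not reported here.

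The filter required 500 genes or more per cell and no more than 10% of UMIs from mitochondrial genes, and the cells with the highest Scrublet scores were removed as doublets, their share being 0.8% for every 1000 barcodes, because Scrublet's own threshold marked almost none. Other lineages were gated at 3 distinct markers and 4 UMIs, mesenchyme at 2 distinct markers, mesenchymal gates at 2 distinct markers (Tfap2b at 1 UMI). A cell with 2 UMIs of the muscle progenitor markers was gated as muscle as well. Cells over 20% erythroid UMIs were set aside. Counts were summed per library and class, since cells are not replicates. Classes were compared with edgeR 4.0.16 in R 4.3.3 (quasi-likelihood test, TMM factors, filterByExpr, library as covariate, two-sided, Benjamini-Hochberg adjustment over all genes tested), with DESeq2 1.42.0 as an alternative. The code was tested on simulated data with 200 genes changed by 1 on the log2 scale. It recovered 92 of them for muscle against mesenchyme and 112 for the perimysial gate. A member that missed the threshold may therefore still differ. Genotypes were compared without a test, and only a count of 0 was set to 3 UMIs in ratios. Poisson and Clopper-Pearson intervals (95%) cover counting error only. The text names the 8 members, the listed network and target genes that passed, and the gene most like each member. Alternatives were no low-count filter, RLE factors, DESeq2, stricter gates (1 more marker UMI), at least 200 genes with no mitochondrial limit, doublets kept, each library left out, and for genotypes TMM factors, the mean over cells and equal depth. Chosen after seeing the data were total UMIs without TMM factors, counts under 3 UMIs set to 3 in ratios, cells with at most 1 mesenchymal UMI, the Myog and Mymk split, the band of 5000 to 15000 UMIs and the mesenchyme in no gate. Gene coordinates are from GENCODE vM21 and promoters from RefSeq (GRCm38.p6).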

Additional observations from a re-analysis of the deposited data

How the results depend on the processing

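The count of members past the threshold stayed within 1.5 times its value in 107 of 150 recomputations. In the muscle comparison it did so under every alternative listed. Leaving out a library gave 1 to 3 members in epithelium (and 5 under each omission in the cells with at most 1 mesenchymal UMI, where it is 6 with all libraries), 1 to 2 in the perimysial gate, 0 to 3 in the midline gate, 1 to 4 in the Tfap2b gate, 1 to 4 in the Scx gate, 1 to 2 in the osteogenic gate and 1 to 3 in dividing cells. The Tfap2b and Scx gates had 0 members with DESeq2, which gave an adjusted p for Six2 alone there (0.16 and 0.12). The perimysial gate had 2 with the looser cell filter or with doublets kept, Six4 being the second (adjusted p = 0.0496 and 0.028). By total UMIs without TMM factors the perimysial gate had 2, dividing cells 3 and the epithelial cells with at most 1 mesenchymal UMI 5. The midline gate had 0 in the band of 5000 to 15000 UMIs. The osteogenic gate had 1, Six2, with no low-count filter, DESeq2, stricter gates, the looser cell filter or doublets kept. The Myog and Mymk split gave 1, with all libraries, without each and by total UMIs. These counts stand without the share of all genes in the same fit, and are not read as results about the members. Between genotypes, mesenchyme in no gate gave 1, muscle gave 1 with stricter gates and 2 in cells with at most 1 mesenchymal UMI, and epithelium 2 in such cells, where Eya1 changed sign (-0.63). Leaving out a control, with only the 1.5-fold limit and the level applied, gave 3 to 5 in the perimysial gate, 1 to 2 in muscle and 1 to 3 in epithelium. The share of all genes under that looser rule was not computed. The cause of the changes in this paragraph was not tested. No paired analysis was possible because there is 1 mutant library, and the class comparisons already carry the library as a covariate. With 3 libraries, 1 of them mutant, members at a few UMIs per class are limited by depth.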

Other observations

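Mesenchymal cells with both Eya1 and Eya4 were counted after each cell was thinned to 5000 UMIs. Control 1 had 10 such cells, control 2 had 13 and the mutant had 103, where independent detection at the same shares would give 6.90, 8.35 and 62.8. The observed number was 1.45, 1.56 and 1.64 times that, in 3 of 3 libraries, with no test. An excess was not particular to this pair: of the 28 pairs of members, 14, 15 and 25 were above 1 by library (medians 1.01, 1.13 and 1.26), and 7 pairs were above 1 in all 3. Gated neurons held Eya1 at 272 CPM (control 1, 12 cells), 34.2 CPM (control 2, 13 cells) and 59.8 CPM (mutant, 299 cells).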
